A study of Mus musculus with 6 samples.

Results

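The genes for the main endocannabinoid receptor and for the enzymes that make and break down its ligands were examined in the hippocampus of p300-ifKO mice and control littermates. The 8 genes were taken by symbol: Cnr1, Cnrip1, Dagla, Daglb, Mgll, Abhd6, Napepld and Faah, each found once among the 55471 genes of the count table. RNA-seq libraries came from 6 mice, with 1 mouse per library and 3 per group. All were males labelled C57BL/6 (C57BL/6J in the methods of the study), 3 to 6 months old, and all received 5 intragastric administrations of tamoxifen (20 mg/ml). The p300-ifKO mice carried floxed Ep300 alleles and Camk2a_creERT2, a tamoxifen-activated Cre under the Camk2a promoter. Controls are described as creERT2-negative in the protocol and in the methods of the study, although the description of each control library names Camk2a_creERT2. The study reports that only genes tied to the driver transgene differed significantly in expression between p300-ifKO and control mice. The driver acts in excitatory neurons of the forebrain, so that interneurons, glia and vessel cells of the p300-ifKO hippocampus keep intact Ep300. The recombined allele is described as still giving a truncated protein, and the counts of Ep300 here cover all of its exons.

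Endocannabinoids are lipids that a postsynaptic neuron releases on demand and that act backwards on the presynaptic terminal. The receptor CB1, encoded by Cnr1, couples to inhibitory G proteins and lowers transmitter release. It is most abundant on the terminals of cholecystokinin (CCK) interneurons in the hippocampus and is found at lower density on glutamatergic terminals. The ligand 2-arachidonoylglycerol (2-AG) is made by diacylglycerol lipases and hydrolysed by monoacylglycerol lipase and ABHD6, and anandamide can be made by NAPE-PLD and is hydrolysed by FAAH. p300, the product of Ep300, is a transcriptional coactivator that acetylates histones at promoters and enhancers.

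Ep300 itself had 1545, 1474 and 2334 normalized counts (counts divided by the size factor of the library) in the controls, against 478, 1350 and 912 in p300-ifKO. The highest of the p300-ifKO values was below the lowest control, and DESeq2 put the log2 fold change at −0.97 ± 0.33 (SE), with an adjusted p of 0.991, the value shared by the 8 genes below. Libraries held between 23151568 and 28433823 counts. Hippocampal field markers such as Prox1 and Wfs1 were present, and of 62 markers in 8 lists of cell type genes 62 had a mean of 10 or more normalized counts and 0 passed in DESeq2. The 6 libraries differed in a trend with gene length: across 17071 genes, which are not independent, the log ratio of a library to the mean of all 6 had a rank correlation with exonic length of 0.18, 0.16 and 0.41 for the controls and of −0.50, 0.41 and −0.28 for p300-ifKO. Ep300 has a long exonic length, 14273 bases. With the length trend of each library taken as an offset in DESeq2, its log2 fold change was −0.81.

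Because p300 acts at regulatory DNA, the start regions of 3 members are shown, those of the receptor and of the main hydrolase of each ligand. The sequences are the reference of RefSeq on GRCm38.p6, which listed 11 windows for 7 of the 8 genes and none for Dagla. Each runs 5′ to 3′ on the strand of the gene, from 250 bases before the most upstream listed start and leaving out the last 10, and capitals mark CpG dinucleotides. The window of Cnr1 lies at chr4:33924014-33924253 (plus strand), that of Mgll at chr6:88724162-88724401 (plus strand) and that of Faah at chr4:116017935-116018174 (minus strand).
Cnr1: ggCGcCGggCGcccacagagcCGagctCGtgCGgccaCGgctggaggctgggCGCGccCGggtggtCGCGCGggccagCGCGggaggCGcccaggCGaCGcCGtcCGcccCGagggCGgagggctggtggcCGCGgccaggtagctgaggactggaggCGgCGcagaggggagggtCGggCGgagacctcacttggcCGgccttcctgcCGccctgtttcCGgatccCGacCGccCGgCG
Mgll: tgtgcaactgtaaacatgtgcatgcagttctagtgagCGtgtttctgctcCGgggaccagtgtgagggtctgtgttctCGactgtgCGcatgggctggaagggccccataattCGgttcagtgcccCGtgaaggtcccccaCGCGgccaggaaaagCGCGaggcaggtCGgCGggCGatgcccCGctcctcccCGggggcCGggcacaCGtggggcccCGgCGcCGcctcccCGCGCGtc
Faah: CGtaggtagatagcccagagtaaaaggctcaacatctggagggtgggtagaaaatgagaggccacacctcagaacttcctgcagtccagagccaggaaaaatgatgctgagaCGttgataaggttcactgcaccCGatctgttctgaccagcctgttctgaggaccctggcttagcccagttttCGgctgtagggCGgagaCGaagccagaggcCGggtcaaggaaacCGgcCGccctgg

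The Cnr1 window held 36 CpG in its 250 bases, a number reached by 2.58% of 32851 promoters. Mgll held 23 CpG, a number reached by 13.31% of promoters, and Faah 9, reached by 40.33%. The median promoter held 6. The cAMP response element TGACGTCA, the site of the p300 partner CREB, was searched on both strands and found in 0 of the 11 windows and in 1.55% of all promoters. Its half-site TGACG, which is part of the full element, was present in the window of Cnrip1 alone and in 17.77% of all promoters. The GC-rich stretch CCCGCC was present in 3 of the 11 windows and in 32.49% of all promoters. The 3 were both windows of Mgll, the one shown among them, and a downstream window of Cnr1 that is not shown. This stretch is not the GC box core GGGCGG on either strand, and that core was not counted. These matches describe sequence and are not binding sites, and no binding or acetylation was measured in these libraries.

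The levels of the 8 genes were compared per length, in RPKM (counts per kb of exonic length, scaled to the total count in genes). Most of the genes were abundant. In control mice Cnr1 was the highest with a level of 40.4 ± 0.747 (SD, n = 3), followed by Mgll at 36.0 ± 3.67 (SD, n = 3), Dagla at 32.0 ± 1.60 (SD, n = 3), Faah at 28.8 ± 1.68 (SD, n = 3), Abhd6 at 26.1 ± 2.42 (SD, n = 3) and Cnrip1 at 23.7 ± 2.02 (SD, n = 3). By their mean level over all 6 libraries, p300-ifKO included, these 6 genes lay between the 88.8 and the 93.5 percentile of 17100 genes with a mean of 10 or more counts. On that mean Mgll (93.5) stood above Cnr1 (93.1). Napepld was lower in control mice, at 9.51 ± 0.992 (SD, n = 3), and Daglb the lowest, at 3.72 ± 0.170 (SD, n = 3). The mean of Daglb over the 6 libraries lay near the middle of those genes, at the 47.9 percentile.

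The ranges of neighbours in this order overlapped over the control mice from Mgll to Cnrip1. Genes further apart did not overlap: the range of Mgll lay above those of Faah, Abhd6 and Cnrip1, that of Dagla above those of Abhd6 and Cnrip1, and that of Faah above that of Cnrip1. Within a control library, Dagla, Faah, Abhd6 and Cnrip1 followed each other in this order in all 3, and Mgll was below Dagla in control replicate 3 alone. The ranges of Cnr1 and Mgll, of Cnrip1 and Napepld and of Napepld and Daglb did not overlap. The same order of all 8 genes was found in p300-ifKO replicate 2, and in p300-ifKO replicate 3 Mgll (39.7) stood above Cnr1 (35.8). In p300-ifKO replicate 1, Cnr1 was sixth of 8 with a level of 22.8, below Mgll (45.4), Faah (32.1), Cnrip1 (29.9), Abhd6 (29.6) and Dagla (26.3). Napepld and Daglb were seventh and eighth in all 6 libraries. Exonic length here joins all annotated transcripts of a gene, so that the level of a gene that uses a short transcript is understated.

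**Figure D1:**
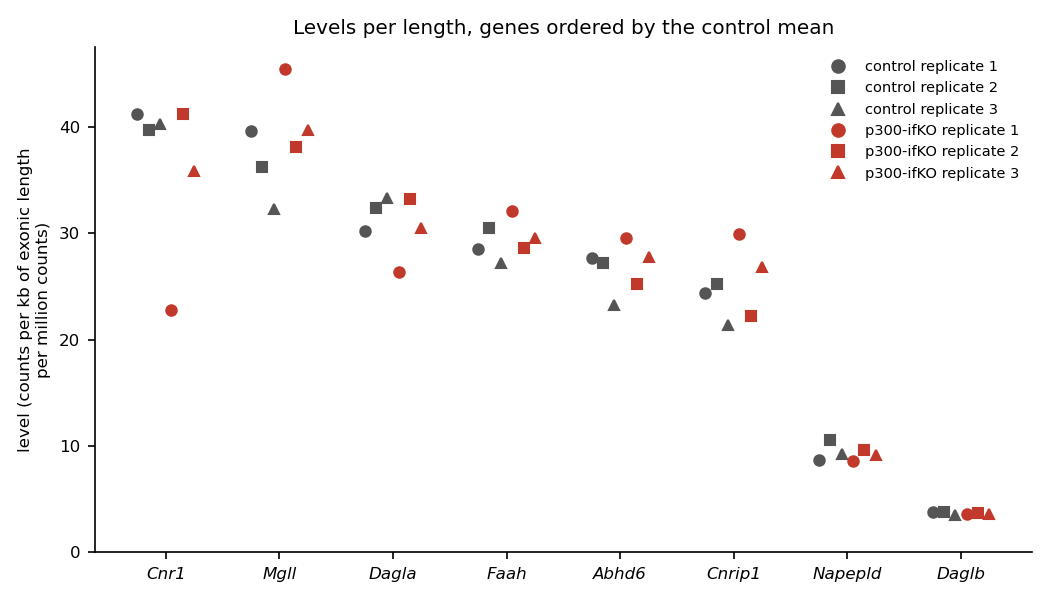
Level of each of the 8 genes in RPKM (vertical axis) in every library, with genes ordered by the control mean. Grey symbols are control and red symbols p300-ifKO mice, with 1 shape per replicate number. The point of p300-ifKO replicate 1 stands apart for Cnr1, at 22.8 against 35.8 to 41.2 in the other 5 libraries.

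The receptor gene was the member with the largest difference between the group means. Cnr1 (ENSMUSG00000044288, GRCm38 chromosome 4, 33924593 to 33948831, plus strand) had 6618, 6508 and 6456 normalized counts in the controls, against 3655, 6673 and 5656 in p300-ifKO. The 3 control values lay within a narrow range, with a coefficient of variation of 1.26%, and the p300-ifKO values spread on both sides of it, with 28.8%. Control mice averaged 6528 ± 82.5 (SD, n = 3) and p300-ifKO mice 5328 ± 1535 (SD, n = 3). DESeq2 put its log2 fold change at −0.29 ± 0.21 (SE), and its 95% interval ran from −0.71 to 0.13, from 0.610-fold to 1.09-fold.

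That difference rested on 1 library. In p300-ifKO replicate 1 Cnr1 stood at 57.3% of the mean of the other 5 libraries, against 94.6% to 115% for each of those, and without that library the log2 fold change was −0.084. Leaving out p300-ifKO replicate 2 instead gave −0.48, with an adjusted p of 0.0554 and an unadjusted one of 0.00536 in DESeq2, where 12.8% of all genes tested had an unadjusted p under 0.05. In each of the other fits tried, the adjusted p of Cnr1 in DESeq2, edgeR or limma was higher. Within p300-ifKO, the order of the libraries was the same for Cnr1 and for Ep300. Ep300 had 478 normalized counts in replicate 1, 912 in replicate 3 and 1350 in replicate 2. p300-ifKO replicate 1 was also the library with the strongest length trend. The smooth curve of that trend stood at −0.20 on the log2 scale at the exonic length of Cnr1 (6444 bases), whereas Cnr1 was 0.67 below its 6-library mean (−0.67 on the same scale). With the curve of each library taken as an offset, the log2 fold change was −0.22 in DESeq2. With 1 surrogate variable, a factor estimated from the shared variation of all genes, it was −0.067. That variable stood at 0.082, 0.048 and 0.50 in the controls and at −0.79, 0.31 and −0.14 in p300-ifKO. It differed in part with group, so that this fit can also remove part of a group difference. The part of that shared variation in the Cnr1 values was not tested further. For Cnr1 in the p300-ifKO libraries, the remaining Ep300 and the length trend cannot be told apart.

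Marker lists of interneurons, excitatory neurons and hippocampal fields gave a mixed picture. Of 10 genes of CCK and other interneurons, 5 were higher and 5 lower in p300-ifKO, and their summed level ran from 27864 to 31894 normalized counts in control and from 26666 to 34309 in p300-ifKO mice, the highest sum being that of p300-ifKO replicate 1. The 8 markers of excitatory neurons summed to between 163134 and 189181 in control and between 172946 and 189557 in p300-ifKO mice. The 6 markers of hippocampal fields were lower in p300-ifKO for 6 of 6 genes, with a sum of 16339 to 19442 in control and of 13394 to 16572 in p300-ifKO mice. Their lowest sum was that of p300-ifKO replicate 1, the library in which Cnr1 was low, and their part in the values of Cnr1 was not tested. In bulk tissue, fewer cells of a type and less RNA per cell cannot be told apart.

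The 5 genes whose pattern over the 6 libraries was most like that of Cnr1 were Gnl3l, Oxr1, Slitrk3, Lin7c and Fmn2. Likeness was the root mean square difference of log2 normalized counts, each gene centred on its own mean, among 12245 genes with a mean of 100 or more. It ran from 0.019 for Gnl3l to 0.039 for Fmn2. Gnl3l had 5774, 5675 and 5588 normalized counts in the controls, against 3263, 5997 and 4963 in p300-ifKO, low in the same library as Cnr1. Exonic lengths of the 5 genes were between 4521 and 7960 bases.

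Cnrip1 (ENSMUSG00000044629, chromosome 11, 17051586 to 17079371, plus strand) encodes a protein that binds the C-terminal tail of CB1. It had 2433, 2566 and 2130 normalized counts in the controls, against 2978, 2238 and 2628 in p300-ifKO, and the groups overlapped. In DESeq2 the fold change on the log2 scale came to 0.14 ± 0.16 (SE), with an interval from −0.17 to 0.44. Cnrip1 was highest in p300-ifKO replicate 1, the library in which Cnr1 was lowest, and its log2 fold change was 0.033 without that library. Of its exonic length, 4.97% overlaps Plek, a gene of blood and microglial cells on the opposite strand.

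**Figure D2:**
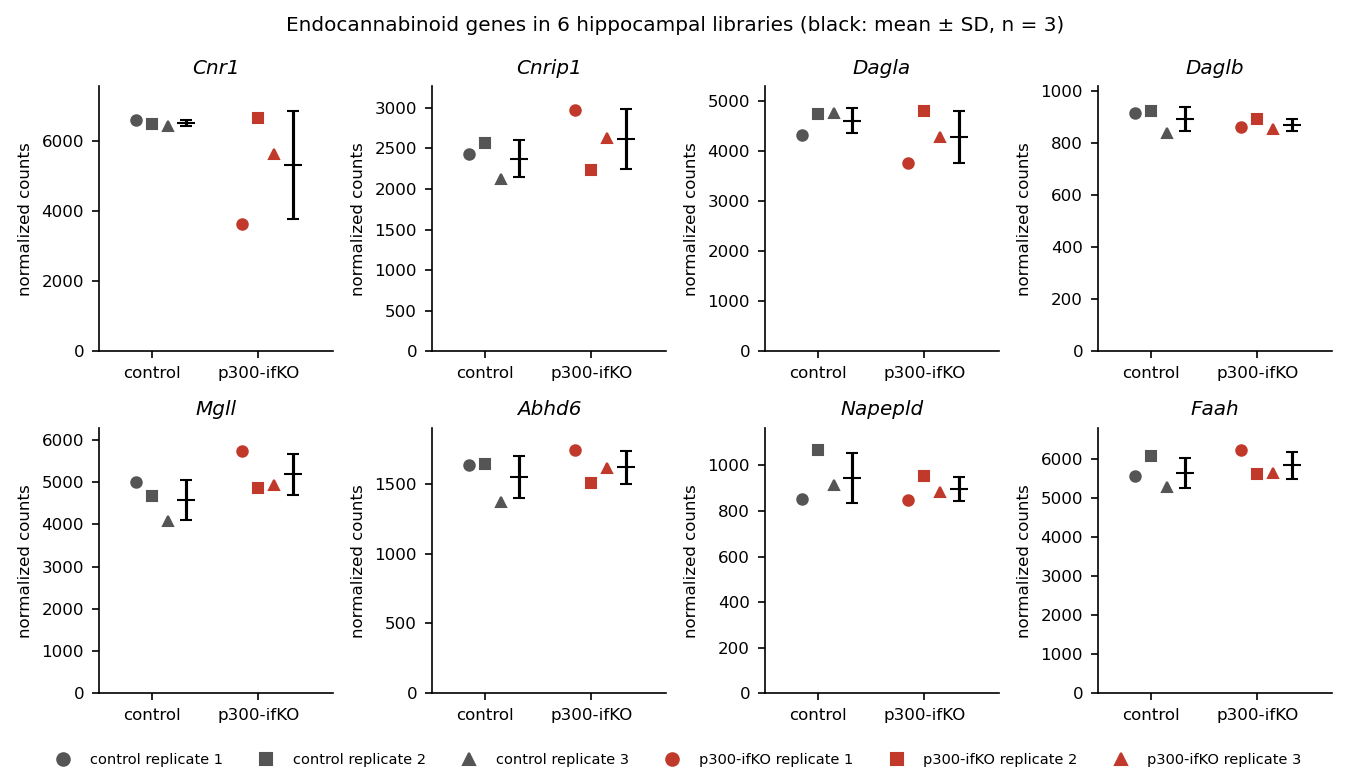
Normalized counts (vertical axis, from 0) of the 8 genes in control (grey) and p300-ifKO (red) mice, 1 symbol per library and 1 shape per replicate number, with the mean ± SD of 3 mice in black beside each group. The groups overlap in each panel. For Cnr1, control libraries lie between 6456 and 6618 and p300-ifKO libraries between 3655 and 6673.

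The synthesis of 2-AG depends on 2 paralogous lipases, of which DAGLα is the enzyme known for retrograde signalling at hippocampal synapses and DAGLβ is known mainly from microglia and macrophages. Dagla (ENSMUSG00000035735, chromosome 19, 10245265 to 10304877, minus strand) had 4334, 4737 and 4774 normalized counts in the controls, against 3761, 4803 and 4294 in p300-ifKO. The lowest value was again in p300-ifKO replicate 1 and the highest in p300-ifKO replicate 2. The fitted log2 fold change came to −0.11 ± 0.14 (SE), with an interval from −0.37 to 0.16, and it was −0.022 without p300-ifKO replicate 1.

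Daglb (ENSMUSG00000039206, chromosome 5, 143464584 to 143505942, plus strand) had 917, 921 and 840 normalized counts in the controls, against 861, 893 and 853 in p300-ifKO, the least variable values of the 8 genes in the p300-ifKO group (coefficient of variation 2.47%). DESeq2 put its log2 fold change at −0.038 ± 0.12 (SE), with an interval from −0.27 to 0.19. At 9567 bases Daglb is the longest member, and the smooth length curve of p300-ifKO replicate 1 stood at −0.32 there, yet Daglb was at −0.031 in that library. With length offsets its log2 fold change was therefore positive, at 0.12 (adjusted p = 0.941 in DESeq2). Daglb is also the member whose count is least certain. The sequence of its exons overlaps Rac1, an abundant gene on the opposite strand with 4049 to 4717 normalized counts, over 24.14% of their length, and 23.92% of its 50-base stretches, the length of a read, also lie in other genes.

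Breakdown of 2-AG was represented by Mgll and Abhd6, which encode the presynaptic monoacylglycerol lipase and a postsynaptic hydrolase. Mgll (ENSMUSG00000033174, chromosome 6, 88724412 to 88828360, plus strand) had 5013, 4673 and 4080 normalized counts in the controls, against 5734, 4868 and 4943 in p300-ifKO. The lowest value was that of control replicate 3 and the highest that of p300-ifKO replicate 1, with the others between 4673 and 5013 in both groups. In DESeq2 the fold change on the log2 scale came to 0.18 ± 0.14 (SE), with an interval from −0.096 to 0.45, and it stayed positive in each of the fits tried, between 0.059 with 1 surrogate variable and 0.24, with 0.10 when control replicate 3 and 0.095 when p300-ifKO replicate 1 was left out. Mgll is also expressed in astrocytes. The 8 astrocyte markers summed to between 131622 and 134880 normalized counts in control and between 120081 and 127331 in p300-ifKO mice, with 3 higher and 5 lower, and the 8 microglial markers to between 8958 and 9826 and between 9849 and 12050, with 6 higher and 2 lower. Their part in the values of Mgll was not tested.

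Abhd6 (ENSMUSG00000025277, chromosome 14, 8002902 to 8056763, plus strand) had 1631, 1638 and 1370 normalized counts in the controls, against 1739, 1502 and 1610 in p300-ifKO. The groups overlapped, and control replicate 3 was the lowest, as for Mgll. The fitted log2 fold change came to 0.064 ± 0.14 (SE), with an interval from −0.20 to 0.33. It was −0.013 without control replicate 3 and −0.014 with length offsets.

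The log2 fold changes of both anandamide enzymes were smaller than 0.1 in size. Napepld (ENSMUSG00000044968, chromosome 5, 21662901 to 21701396, minus strand), which encodes a phospholipase that releases anandamide and related lipids from membrane precursors, had 854, 1066 and 913 normalized counts in the controls, against 848, 953 and 883 in p300-ifKO. Its highest value was in control replicate 2, and without that library the log2 fold change moved from −0.077 ± 0.14 (SE, interval from −0.36 to 0.20) to 0.021. Faah (ENSMUSG00000034171, chromosome 4, 115967145 to 116017926, minus strand), which encodes the amide hydrolase that degrades anandamide, had 5580, 6081 and 5303 normalized counts in the controls, against 6253, 5633 and 5664 in p300-ifKO. DESeq2 put its log2 fold change at 0.049 ± 0.12 (SE), with an interval from −0.18 to 0.28, or from 0.883-fold to 1.21-fold, the narrowest of the 8 on the log2 scale. Faah was above its 6-library mean in p300-ifKO replicate 1, where the length curve stood at −0.26 for its 7834 bases, and with length offsets its log2 fold change was 0.19 (adjusted p = 0.941 in DESeq2).

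As a group, 0 of the 8 genes passed an adjusted p of 0.05 in DESeq2, 0 had an unadjusted p under 0.05, and 0 had groups that did not overlap. Among all 32773 genes tested, 0.00610% passed, 1.32% had an unadjusted p under 0.05, and 6.64% had groups that did not overlap. Both the edgeR quasi-likelihood test and limma-voom also called 0 of the 8, where each called 0.0117% of all genes, and 0 of the 8 had an unadjusted p under 0.05 in either, against 2.30% of all genes in edgeR and 2.15% in limma-voom. Of the 8, 4 were higher and 4 lower in p300-ifKO, with a median log2 fold change of 0.0052 against −0.046 over all genes tested. The 95% intervals of the 8 log2 fold changes lay within −0.71 and 0.45, and those of the 7 genes other than Cnr1 within −0.37 and 0.45, so that a halving or a doubling of any of the 8 in bulk hippocampal RNA was outside its interval. A change within the excitatory neurons alone was not measured, and RNA of other cells would dilute it. Where p300-ifKO replicate 2 was left out, 2.93% of all genes passed in DESeq2, and still 0 of the 8.

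**Figure D3:**
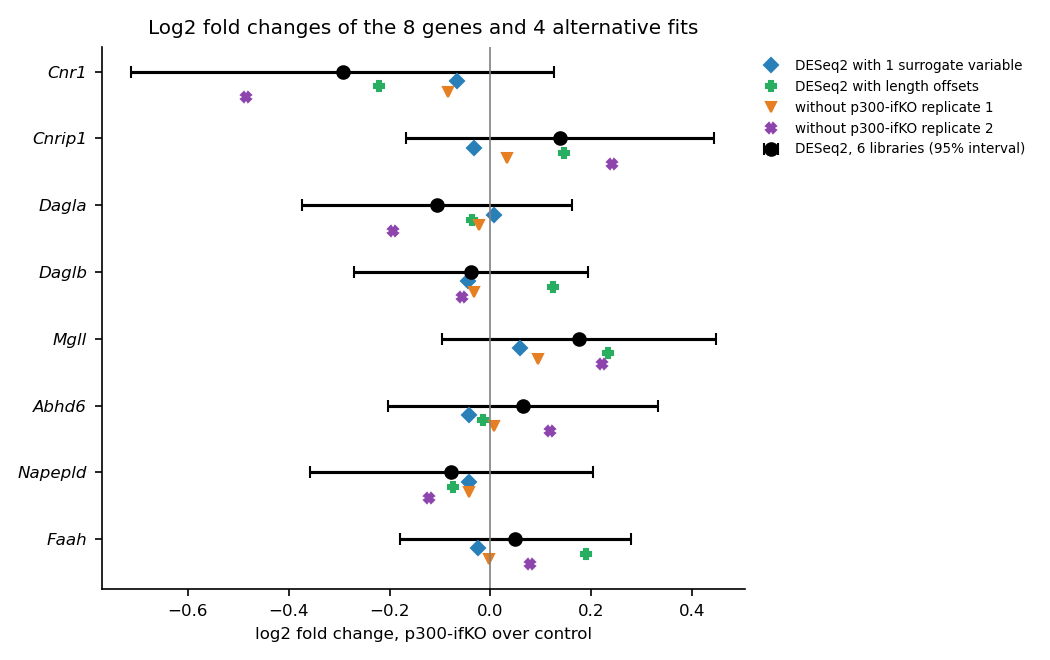
Log2 fold change of p300-ifKO over control (horizontal axis) for the 8 genes. Black points and bars are the DESeq2 fit on 6 libraries with its 95% interval, and coloured symbols are the same value with 1 surrogate variable, with length offsets, and without p300-ifKO replicate 1 or 2. All 8 bars cross 0, and Cnr1 moves most, from −0.48 to −0.067.

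Ratios between members within a library do not depend on the scaling of libraries, and 6 were compared. Each is a ratio of levels per length, tested with an exact permutation test (two-sided), in which the smallest p that 3 against 3 mice allow is 0.1, so that no ratio could pass a threshold of 0.05. Dagla exceeded Daglb in every library, by 7.87, 8.56 and 9.46 times in control and 7.27, 8.95 and 8.39 times in p300-ifKO mice, a difference in log2 ratio of −0.075 (exact permutation test, p = 0.6, adjusted p = 0.6 over the 6 ratios). The ratio of Dagla to Mgll, the enzymes that make and hydrolyse 2-AG, was 0.764, 0.896 and 1.03 in the controls, against 0.579, 0.872 and 0.767 in p300-ifKO. Its log2 difference was −0.29 (exact permutation test, p = 0.3, adjusted p = 0.45), larger than the SD of the control mice (0.22) but not than that of the p300-ifKO mice (0.30). It came to −0.12 when p300-ifKO replicate 1 was left out and to −0.42 when replicate 2 of that group was.

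Mgll exceeded Abhd6 by 1.43, 1.33 and 1.39 times in control and by 1.54, 1.51 and 1.43 times in p300-ifKO mice. This was the tightest of the 6 ratios, and its log2 difference of 0.11 was about 2 times the SD within either group (0.054 and 0.053), with a p of 0.2 in the exact permutation test and an adjusted p of 0.45. With the length offsets subtracted, that difference was 0.24, with a p of 0.1 in the exact permutation test, the smallest that 3 against 3 mice allow. Napepld stood at 0.303, 0.347 and 0.341 of Faah in control and at 0.269, 0.335 and 0.309 in p300-ifKO mice (log2 difference −0.12, exact permutation test, p = 0.4, adjusted p = 0.48). That difference was −0.25 with length offsets subtracted and −0.037 without p300-ifKO replicate 1. The ratios that hold Cnr1 also moved with p300-ifKO replicate 1: Cnr1 to Dagla was 1.36, 1.23 and 1.21 in the controls, against 0.867, 1.24 and 1.17 in p300-ifKO, and Cnrip1 to Cnr1 was 0.592, 0.635 and 0.531 in the controls, against 1.31, 0.540 and 0.748 in p300-ifKO. Both had p = 0.3 in the exact permutation test (adjusted p = 0.45). Without that library the log2 differences of these ratios were −0.066 and 0.12, against −0.22 and 0.47 with it. The groups overlapped in each of the 6 ratios as computed without length offsets.

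**Figure D4:**
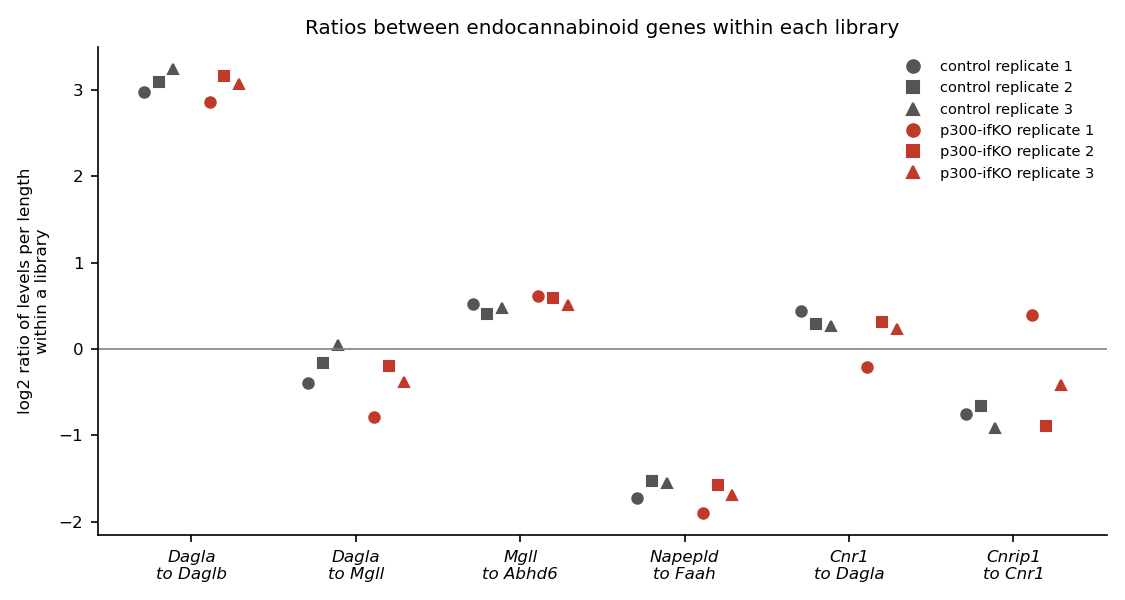
Log2 ratio of the levels per length of 2 genes within each library (vertical axis) for 6 pairs, control in grey and p300-ifKO in red, 1 shape per replicate number. Dagla lies about 3 log2 units above Daglb in all 6 libraries, and p300-ifKO replicate 1 stands apart in both pairs that hold Cnr1.

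The other genes of the pathway were read as a list of 43, in 6 groups by role. In DESeq2 0 of the 43 passed and 0 had an unadjusted p under 0.05, as in edgeR and limma-voom, where 38 were tested. Of the 43, 22 were higher and 21 lower in p300-ifKO, with a median log2 fold change of 7.6e-05, and the groups did not overlap for 2, against 6.64% of all genes: Gnao1, which encodes the abundant G protein Gαo of brain and was lower in p300-ifKO (20119 ± 482 against 17339 ± 2223 normalized counts, SD, n = 3), and Gpr119, a receptor of lipid amides that was higher and had under 7 normalized counts in every library. Both are named for this count, chosen after their values were seen.

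By role, the G proteins and the glutamate and muscarinic receptors that drive 2-AG release had 3 higher and 7 lower (median −0.16), the receptor partners 1 higher and 4 lower (median −0.081), and the other 2-AG enzymes 2 higher and 4 lower (median −0.082). The other anandamide enzymes had 9 higher and 2 lower (median 0.079), the lipid carriers 3 higher and 1 lower (median 0.30), and the other receptors 4 higher and 3 lower (median 0.016). The 3 genes that came nearest to the threshold were Fabp3, a carrier of fatty acids (log2 fold change 0.38 ± 0.22, SE), Gde1, a phosphodiesterase that releases anandamide from a precursor (0.28 ± 0.17, SE), and Ptgs2, the cyclooxygenase that can oxidise 2-AG (−0.34 ± 0.21, SE). Their adjusted p in DESeq2 was 0.991.

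Fabp3 had 291, 275 and 259 normalized counts in the controls, against 458, 264 and 356 in p300-ifKO, Gde1 4091, 4406 and 3877 against 6061, 4070 and 4933, and Ptgs2 742, 852 and 655 against 447, 725 and 600. In all 3 genes p300-ifKO replicate 1 was the extreme library and p300-ifKO replicate 2 lay among the controls. Without p300-ifKO replicate 2, 4 of the 43 passed in DESeq2 and 14 had an unadjusted p under 0.05, where 2.93% and 12.8% of all genes did. The 4 were Fabp3 (0.56) and Gde1 (0.42), which were higher, and Grm5 (−0.57) and Gnaq (−0.52), which were lower. Their exonic lengths were 823, 1692, 10247 and 6185 bases, in that order. The p300-ifKO libraries left in that fit had length correlations of −0.50 and −0.28, against 0.18, 0.16 and 0.41 in the controls. Group and length trend therefore cannot be told apart there. Wasf1, which encodes an actin regulator, had the highest level of the list, 143 RPKM averaged over the 6 libraries, and Gpr18, a G protein-coupled receptor, the lowest, at 0.026. Cnr2, which encodes CB2, the receptor of immune cells, had under 10 normalized counts in every library, and the 95% interval of its log2 fold change was wide, from −1.53 to 1.57. It is named after its values were seen.

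**Figure D5:**
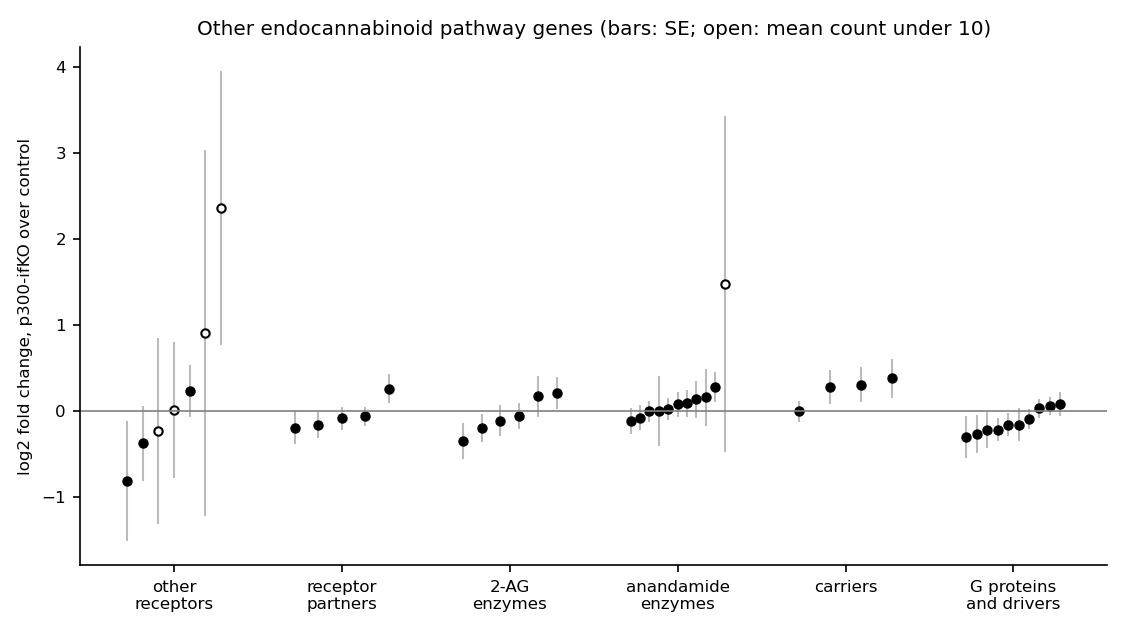
Log2 fold change of p300-ifKO over control in DESeq2 (vertical axis) for 43 other endocannabinoid pathway genes in 6 groups by role, with bars of 1 SE. Open circles are 5 genes with a mean under 10 normalized counts, whose bars are the longest. The median of the list is 7.6e-05.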

How the data were processed

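The data were deposited as unnormalized read counts for each gene in 6 libraries, with 1 mouse each. Per the study's methods, the authors trimmed adapters from single-end 50 bp reads, aligned them to GRCm38 with STAR, kept those with a mapping quality above 10 and counted them to exons of Ensembl genes (release 99) with Rsubread. The strand setting is not given in the sources used here, so reads of overlapping genes on opposite strands, such as Daglb and Rac1, cannot be told apart from the counts. The other deposited column, exonic length, was used as given, and 0 columns of other samples were left aside. Symbols and coordinates came from GENCODE M21 on the same build, which matched 99.57% of identifiers.

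Groups were taken from the sample titles. DESeq2 (version 1.42.0), the tool of the study, was fitted to all genes (two-sided Wald test, default filters, Benjamini-Hochberg, threshold 0.05). Alternatives were edgeR (version 4.0.16) with and without filterByExpr, limma-voom (version 3.58.1), TMM factors, a minimum of 10 counts in 3 libraries, a replicate block, 1 surrogate variable from sva (version 3.50.0), smooth length offsets from mgcv (version 1.9.3) and leaving out each library. A pseudocount of 1 was used for likeness to Cnr1. Fits were tested on simulated counts, drawn for each gene on its own. These held no length trend and no variation shared between genes, so that test does not cover the trend of these libraries. Named were the 8 genes, Ep300, pathway genes that passed or had the 3 smallest p, those with the highest and lowest level, and the 5 genes most like Cnr1. Other genes named, such as Gnao1, Gpr119 and Cnr2, were chosen after their values were seen. The members and lists were chosen with earlier results of these data known. Total counts per library were 23151568 to 28433823.

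Of the marker lists, hippocampal fields (6 genes) had a median log2 fold change of −0.17, oligodendrocytes (8) 0.19, endothelium (8) −0.17 and choroid plexus (6) 0.41. The p-values depend on the spread between libraries. Each library came from its own mouse, so differences between mice and between library preparations cannot be told apart in that spread.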

Additional observations from a re-analysis of the deposited data

How the results depend on the processing

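The 8 genes gave 0 calls under each of the alternatives tried, and Cnr1 and Mgll kept their direction in all of them. With 1 surrogate variable in DESeq2, the log2 fold change was −0.033 for Cnrip1, 0.0079 for Dagla, −0.042 for Abhd6 and −0.024 for Faah, each a change of sign. In edgeR with that variable, an alternative chosen after seeing the data, they were −0.032, 0.0091, −0.040 and −0.023. The variable differed in part with group, so that both fits can also remove part of a group difference. With length offsets Daglb was 0.12 and Abhd6 −0.014. Leaving out one library at a time gave from −0.013 to 0.12 for Abhd6, from −0.14 to 0.021 for Napepld, from −0.0030 to 0.11 for Faah and from −0.14 to 0.0095 for the log2 ratio of Dagla to Daglb. The change of sign came without control replicate 3 for Abhd6, without control replicate 2 for Napepld and without p300-ifKO replicate 1 for Faah and that ratio. The cause was not tested.

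Ep300 was −0.48 with 1 surrogate variable (adjusted p = 0.00127 in DESeq2) and ran from −1.36 to −0.66 without one library, with its lowest adjusted p of all fits, 0.000356 in DESeq2, when p300-ifKO replicate 2 was left out. Over all genes, 2 passed in DESeq2, 4 with the replicate block, and from 2 to 938 without one library, while the pathway list gave from 0 to 4. Both highest counts came without p300-ifKO replicate 2.

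Whether mice with the same replicate number are pairs is not given in the sources used here. Over genes, their deviations from the mean of each group had correlations of 0.27, −0.28 and 0.14. With 3 libraries per group that also differ in their length trend, these values cannot settle it. The replicate block left Cnr1 at −0.34, with 0 of the 8 genes called. With 3 mice per group, the SE of the 8 log2 fold changes, from 0.12 to 0.21, limited the precision.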
